A study of Rattus norvegicus with 80 samples.

Results

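Nf1 (ENSRNOG00000013780), the gene mutated in the rat lines of this study, is followed here through every tissue, line and tumor. It is 1 of 32883 genes in the deposited count table, chosen by its identifier and not by its values. Nf1 encodes neurofibromin, a GTPase-activating protein that returns Ras from its active, GTP-bound state to its inactive state. Loss of neurofibromin leaves Ras signalling longer in the active state. Inherited NF1 mutations cause neurofibromatosis in people and raise the risk of breast cancer, which is the setting of a mammary model.

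RNA sequencing covered 80 libraries of Rattus norvegicus in 19 groups. Wildtype rats and 3 Nf1-mutated lines, labelled IF, PS and IFPS, each gave whole mammary pads, mammary epithelial cells (MECs), mature adipocytes and fibroblasts, and the mutated lines also gave primary tumors. The labels do not spell out the line names, the alleles, the ages of the rats or the number of founder animals. Each cell type had 3 libraries per line, pads had 6 in wildtype, PS and IFPS and 3 in IF, and there were 5 IF tumors, 9 PS tumors and 9 IFPS tumors. The series text calls the normal cell types flow sorted, while the extraction protocol describes MECs and fibroblasts as cultured until near confluency. Tumors and pads were extracted fresh.

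Libraries held 17344717 to 37293141 counts (median 26277354), of which Nf1 took 500 to 4715 (median 2756). Counting error alone was thus 1.46% to 4.47% of a value. Nf1 levels are given in CPM, the count relative to the library total after TMM scaling, a correction for differences in RNA makeup. Scores of genes enriched in wildtype MECs (307 identifiers), adipocytes (397) and fibroblasts (56) were used to check the cell labels. The score of the labelled type was the highest in 12 of 12 libraries of each cell type, 3 of which had chosen the identifiers.

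Nf1 was detected in all 80 libraries. Group means ran from 151.8 ± 4.88 CPM (SD, n = 3) in IF fibroblasts to 73.1 ± 3.74 CPM (SD, n = 6) in IFPS pads. The upper end of the order held the wildtype and IF cells. After IF fibroblasts came wildtype fibroblasts, adipocytes and MECs, then IF MECs and IF adipocytes. Below them lay PS tumors, PS MECs, IF tumors, PS fibroblasts, IFPS MECs, IFPS and PS adipocytes, wildtype and IF pads, IFPS fibroblasts, PS pads, IFPS tumors and IFPS pads. Neighbours in this order were mostly close. In 3 of 18 neighbouring pairs the gap between means exceeded the larger of the 2 SDs, and in 16 of 18 the ranges of the libraries overlapped.

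**Figure D1:**
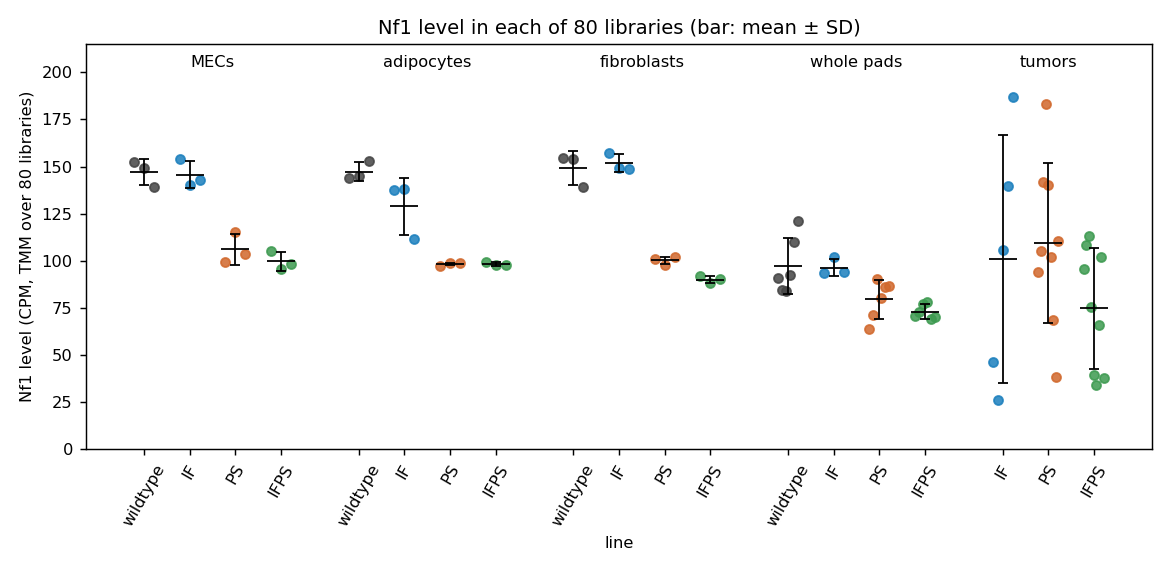
Nf1 level (CPM, TMM over 80 libraries, y axis from 0) in each library, by tissue and line. Points are libraries, and bars are the mean ± SD of a group. PS and IFPS cells sit between 88.1 and 115.1 CPM, below every wildtype cell library, and tumors spread from 26.3 to 186.7 CPM.

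The first comparison was among tissues of wildtype rats. Wildtype MECs had 152.4, 149.4 and 139.2 CPM of Nf1. Wildtype adipocytes had 143.9, 145.1 and 153.0 CPM, and wildtype fibroblasts had 154.7, 154.2 and 139.1 CPM. The ranges of the cell types overlapped. In the fit of 57 normal libraries, MECs differed from fibroblasts by a log2 fold change of -0.03 ± 0.10 (SE, 95% interval -0.23 to 0.17) and from adipocytes by -0.01 ± 0.10 (interval -0.21 to 0.19). Adipocytes differed from fibroblasts by -0.02 ± 0.10, with an interval of -0.23 to 0.18. None of these differences passed the test, while 51%, 66.2% and 63% of genes did in the 3 comparisons. The Nf1 differences depend on scaling. With library totals and no scaling factors, MECs were higher than fibroblasts by 0.34 (edgeR adjusted p = 0.0165) and than adipocytes by 0.47 (edgeR adjusted p = 6.9e-04). These totals also moved the median of all genes, by 0.36 and 0.45.

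Whole wildtype pads had a lower Nf1 level in CPM than any of the cell types, from 84.1 to 120.9 CPM with a median of 91.9 (n = 6). No pad reached the level of a wildtype cell library, and 60.2%, 61.1% and 59.9% of genes likewise had no overlap of pads with MECs, adipocytes and fibroblasts. MECs were higher than pads by a log2 fold change of 0.60 ± 0.09 (SE, edgeR adjusted p = 4.8e-08), in a comparison where 70.4% of genes were called. The difference was 0.61 ± 0.09 for adipocytes (edgeR adjusted p = 2.7e-08, 73.8% of genes called). For fibroblasts it was 0.63 ± 0.09 (edgeR adjusted p = 1.4e-08, 71.3% of genes called). With library totals the adipocyte difference fell to 0.12 and lost its call (edgeR adjusted p = 0.279). The fibroblast difference was then 0.26 and the MEC difference 0.60. By library totals pads had 81.6 to 127.4 CPM. They overlapped adipocytes (99.9 to 118.1 CPM) and fibroblasts (114.1 to 124.5 CPM) there, but not MECs (143.0 to 158.6 CPM). In bulk samples fewer cells of a type and less RNA per cell cannot be told apart. The extraction protocol describes MECs and fibroblasts as cultured and pads as fresh, and handling cannot be told apart from tissue there. The wildtype pads here pool the sets described below, of which the second had more Nf1 by a log2 fold change of 0.37 ± 0.11 (SE).

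The next question was how much Nf1 transcript the mutated lines carried in each cell type. In fibroblasts, PS libraries had 100.8, 98.0 and 101.9 CPM of Nf1. IFPS fibroblasts had 91.9, 88.1 and 90.2 CPM. The lines lay below every wildtype fibroblast library. IFPS lay below every PS library, in a comparison where 55% of genes had no overlap. With library totals PS (73.1 to 76.2 CPM) and IFPS (73.2 to 77.5 CPM) overlapped. No overlap with wildtype fibroblasts was seen in 39% of genes for PS and 20.7% for IFPS. Nf1 fell to 65.1% of wildtype in PS (95% interval 59.7% to 71.0%) and to 59.6% in IFPS (interval 54.6% to 65.0%). The edgeR adjusted p was 2.99e-04 in PS, in a comparison that called 21.7% of genes, and 2.62e-04 in IFPS, which called 0.0648%. By p-value, Nf1 ranked at position 12 of 13879 genes in PS and at position 2 in IFPS. In a fit of only IFPS and wildtype fibroblasts the IFPS difference was no longer called (edgeR adjusted p = 0.0799).

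MECs showed the same direction in both lines. PS MECs had 99.4, 115.1 and 103.7 CPM of Nf1, and IFPS MECs had 105.2, 95.4 and 98.6 CPM. No library of these lines reached the lowest wildtype MEC library, at 139.2 CPM, and 21.8% of genes in PS and 15.6% in IFPS had no overlap with wildtype. Nf1 fell to 72.5% of wildtype in PS (interval 65.3% to 80.5%, edgeR adjusted p = 0.00837, 2.36% of genes called). It fell to 68.6% in IFPS (interval 61.8% to 76.2%, edgeR adjusted p = 0.0190, 0.374% of genes called), at rank 4 of 14688 genes. The IFPS call was lost without any 1 of the 3 IFPS MEC libraries or without wildtype replicate 1 (edgeR adjusted p of 0.0639 to 0.0760), and fits of only 2 groups lost both calls. The log2 fold change itself stayed between -0.59 and -0.51 when libraries were left out.

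Adipocytes of PS and IFPS had the tightest values of Nf1. PS adipocytes had 97.4, 98.6 and 98.7 CPM, and IFPS adipocytes had 99.5, 97.9 and 97.6 CPM. All 6 lay below the lowest wildtype adipocyte library, at 143.9 CPM. In PS 21.5% of genes had no overlap with wildtype. Nf1 fell to 68.6% of wildtype in PS (interval 59.97% to 78.5%, edgeR adjusted p = 0.0406, 0.378% of genes called). In IFPS the level was 67.8% of wildtype (interval 59.2% to 77.5%) with no overlap of the libraries, which held for 15.5% of genes. Its unadjusted edgeR p of 5.6e-05 ranked at position 7 of 14304 genes and its edgeR adjusted p was 0.0972. In that comparison 0 genes passed edgeR, 927 had an unadjusted p under 0.05 and DESeq2 called 219, Nf1 among them (DESeq2 adjusted p = 8.93e-07). The PS call was kept only without wildtype replicate 1. Leaving out any other library gave an edgeR adjusted p of 0.137 to 0.168, at log2 fold changes of -0.56 to -0.52.

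**Figure D2:**
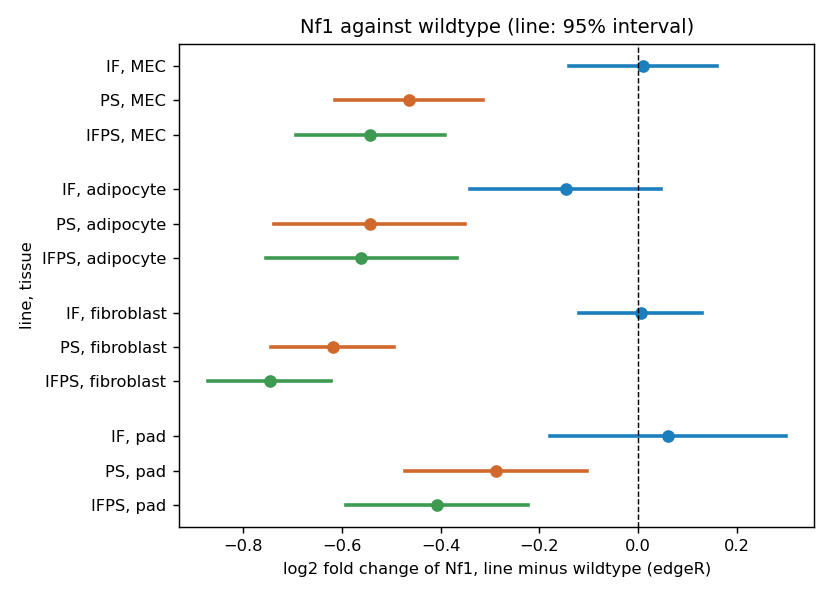
Log2 fold change of Nf1 between each mutated line and wildtype (x axis, edgeR) by tissue (y axis). Points are estimates and lines are 95% intervals. The intervals of PS and IFPS lie below 0 in all 4 tissues and those of IF include 0.

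The IF line differed from the other mutated lines in these cells. IF fibroblasts had 157.4, 149.1 and 148.9 CPM of Nf1, and IF MECs had 153.8, 140.3 and 143.0 CPM. Both ranges overlapped wildtype. The log2 fold change from wildtype was 0.01 ± 0.06 (SE) in fibroblasts, with an interval of -0.12 to 0.13, and 0.01 ± 0.07 in MECs, with an interval of -0.14 to 0.16. Of all genes, 7.66% were called between these fibroblasts and 0.817% between these MECs. In IF adipocytes the libraries had 137.3, 138.2 and 111.4 CPM, each below the lowest wildtype library on this scale. The fit of adipocytes scaled the libraries among themselves, and there 1 IF library overlapped wildtype. The level was 90.3% of wildtype, with an interval of 79.0% to 103.3% (log2 fold change -0.15 ± 0.09, edgeR adjusted p = 0.186). Without IF replicate 3, the library with 111.4 CPM, the log2 fold change was -0.051, and over all libraries left out in turn it reached -0.21. IF adipocytes differed from wildtype in 48.2% of all genes tested.

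Tests between the mutated lines gave the same order. Against IF fibroblasts, PS fibroblasts were lower by a log2 fold change of -0.62 ± 0.06 (SE, edgeR adjusted p = 7.76e-04, 4.78% of genes called). IFPS fibroblasts were lower than IF by -0.75 ± 0.06 (edgeR adjusted p = 1.60e-04, 31.4% of genes called). In adipocytes the differences from IF were -0.40 ± 0.09 for PS (edgeR adjusted p = 0.00359) and -0.41 ± 0.09 for IFPS (edgeR adjusted p = 0.00273). These comparisons called 52.7% and 53% of genes, so a call there was common. In MECs they were -0.47 ± 0.07 for PS (edgeR adjusted p = 0.0470, 0.0681% of genes called) and -0.55 ± 0.07 for IFPS (edgeR adjusted p = 0.0100, 0.742% of genes called). The MEC call of PS against IF was lost in 5 of 6 fits that left out 1 library, and was kept without PS replicate 2. That of IFPS against IF was lost without IFPS replicate 2 or 3.

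PS and IFPS did not differ from each other in Nf1 past the threshold in any normal tissue. IFPS minus PS was -0.08 ± 0.07 in MECs (SE, interval -0.23 to 0.07) and -0.02 ± 0.09 in adipocytes (interval -0.21 to 0.18), where 0.0681% and 0.028% of genes were called. In fibroblasts, where the libraries did not overlap, it was -0.13 ± 0.06 (interval -0.25 to -0.0032, edgeR adjusted p = 0.0942). In that comparison 55% of genes had no overlap and 40.5% were called. The fibroblast value was 0.0025 with library totals, under which the median of all genes moved by 0.13, and in a fit of only these groups it passed the test (edgeR adjusted p = 0.0416).

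Whether a line's difference from wildtype depended on the tissue was tested in the fit of the 57 normal libraries. That fit did not adjust for the sets of pads described below, and IF pads belong to the first set only. In the fit of pads alone, IF minus wildtype was 0.06 with that adjustment and -0.026 without it. For IF the edgeR adjusted p over pads, MECs, adipocytes and fibroblasts was 0.626, for PS 0.217 and for IFPS 0.494, and 35.7%, 8.61% and 1.41% of genes passed. The PS value was 0.0466 without wildtype pad replicate 6, the pad with the most Nf1. The difference from wildtype in fibroblasts minus that in MECs was 0.03 ± 0.14 for IF (SE, interval -0.25 to 0.32). It was -0.11 ± 0.14 for PS (interval -0.40 to 0.17) and -0.18 ± 0.14 for IFPS (interval -0.46 to 0.11). None passed the test, which 0.175%, 1.5% and 0.00584% of genes did. The sign in IF turned with scaling (-0.069 with library totals).

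Pads carry title numbers 1 to 12 or, for wildtype, PS and IFPS only, 13 to 21. The labels give no meaning to the numbers. The sets stood apart in identifiers that separate the lines in cells, which were chosen after their values were seen. ENSRNOG00000012067 had 7.15 to 15.8 CPM in wildtype MECs and fibroblasts and 10.8 to 16.01 CPM in wildtype pads of the first set. In wildtype pads of the second set it had 197.6 to 245.2 CPM, within the 175.3 to 271.4 CPM of IF pads, and PS pads of that set ran from 16.3 to 594.9 CPM. ENSRNOG00000003905 had 44.1 to 49.6 CPM in IFPS pads of the first set and 28.7 to 34.6 CPM in those of the second set, beside 23.4 to 30.2 CPM in PS pads. Differences of lines from wildtype pads, and of PS and IFPS tumors from pads, are therefore also given by set. Other results for pads use both sets together. Tumors varied in these identifiers as well. ENSRNOG00000012067 ran from 5.13 to 480.2 CPM in PS tumors, 2.78 to 233.0 in IFPS tumors and 158.8 to 226.5 in IF tumors. PS cells had 89.7 to 179.6 CPM of it and IFPS cells 0.39 to 18.6. ENSRNOG00000003905 ran from 29.3 to 62.1 CPM in IFPS tumors, 26.1 to 38.5 in PS tumors and 28.9 to 39.8 in IF tumors. Whether these pads and tumors match their labels was not tested.

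Over both sets, Nf1 in PS pads ran from 63.7 to 90.3 CPM with a median of 83.0, and in IFPS pads from 69.3 to 78.1 CPM with a median of 72.0 (n = 6 each). PS pads overlapped the wildtype range, and all 6 IFPS pads lay below it. The log2 fold change from wildtype was -0.29 ± 0.09 in PS (SE, edgeR adjusted p = 0.325, rank 206 of 16384 genes). In IFPS it was -0.41 ± 0.09 (edgeR adjusted p = 0.429) at rank 6, and 0.281% of genes showed no overlap between these groups. In PS pads 0.0061% of genes passed edgeR. In IFPS pads 0 genes passed, 1297 had an unadjusted p under 0.05, and DESeq2 called 21, Nf1 among them (DESeq2 adjusted p = 0.0143).

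An exact permutation test of Nf1 alone, with labels exchanged within a set, gave a difference in mean log2 CPM of -0.40 for IFPS pads. Its exact p was 0.005, the smallest that 6 against 6 pads in 2 sets allow, and 0.0369 after adjustment over 9 tests. For PS pads the difference was -0.29 (exact p = 0.02, adjusted 0.06), and with RLE size factors, another scaling, its exact p was 0.015, adjusted 0.045. With library totals the exact p was 0.02 for IFPS, adjusted 0.168, and 0.19 for PS. IF pads, compared with wildtype pads of the first set, differed by 0.16. Their exact p was 0.1, the smallest that 3 against 3 allow.

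Within the sets, the distance of the lines from wildtype differed in size. In the first set, wildtype pads had 91.1, 84.6 and 84.1 CPM of Nf1. PS pads of that set had 63.7, 71.1 and 90.3 CPM, so 1 of 3 lay inside the wildtype range, and IFPS pads had 70.9, 73.1 and 77.2 CPM, all below it. No overlap with wildtype was seen there in 14% of genes. IF pads had 93.4, 101.9 and 94.1 CPM, all above the wildtype pads of their set (15.4% of genes without overlap). In the first set alone the log2 fold change from wildtype was 0.16 ± 0.11 in IF (SE, edgeR adjusted p = 0.814). It was -0.19 ± 0.11 in PS (edgeR adjusted p = 0.369) and -0.23 ± 0.11 in IFPS (edgeR adjusted p = 0.982).

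In the second set, wildtype pads had 92.7, 109.8 and 120.9 CPM of Nf1. PS pads had 80.1, 85.9 and 86.5 CPM, and IFPS pads had 78.1, 69.3 and 70.2 CPM. All 6 lay below the wildtype pads of their set, where 34.2% of genes in PS and 12% in IFPS had no overlap. The log2 fold change from wildtype was -0.39 ± 0.11 in PS (SE, edgeR adjusted p = 0.205) and -0.59 ± 0.11 in IFPS (edgeR adjusted p = 0.356).

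The sets themselves were compared in wildtype pads, where the second set had more Nf1 than the first by a log2 fold change of 0.37 ± 0.11 (SE, edgeR adjusted p = 0.0587). The libraries did not overlap, which held for 41.7% of genes, and 3.86% of genes were called. DESeq2 called this difference (DESeq2 adjusted p = 0.0211), and with library totals it was 0.08. The set difference was 0.13 ± 0.11 in PS (1.01% of genes called) and -0.02 ± 0.11 in IFPS (0.159% called). It differed from wildtype by -0.24 ± 0.16 in PS (edgeR adjusted p = 0.279, 13% of genes called) and by -0.39 ± 0.16 in IFPS (edgeR adjusted p = 0.573, 0.0061% called). The first of these was 0.11 with library totals and -0.039 without PS replicate 3, the PS pad with 90.3 CPM.

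Against IF pads, PS and IFPS pads had less Nf1 without overlap. The log2 fold change was -0.35 ± 0.11 for PS (SE, edgeR adjusted p = 0.557, 2.66% of genes without overlap). It was -0.47 ± 0.11 for IFPS (edgeR adjusted p = 0.202, 4.03% of genes without overlap), which DESeq2 called (DESeq2 adjusted p = 0.0190). IFPS minus PS was -0.12 ± 0.09, with an interval of -0.30 to 0.06.

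**Figure D3:**
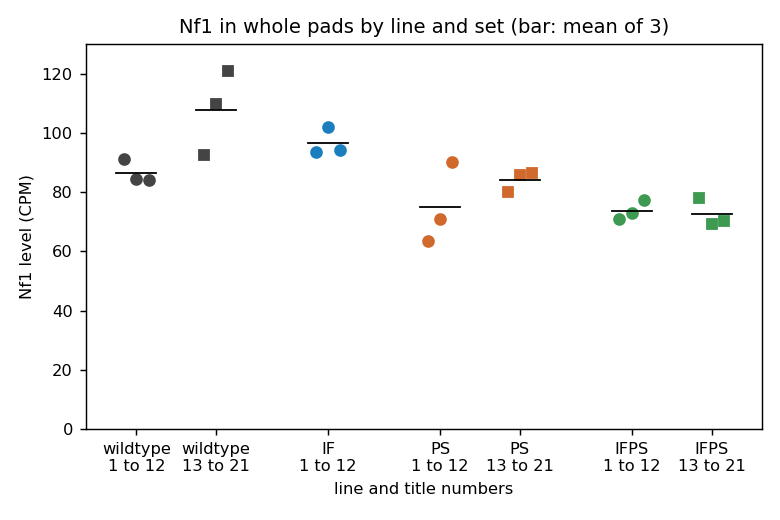
Nf1 level (CPM, y axis from 0) in whole pads by line and set of title numbers. Circles are numbers 1 to 12, squares are 13 to 21, and bars are means of 3. Wildtype pads have a mean of 86.6 CPM in the first set and 107.8 in the second, and IFPS pads 73.7 and 72.6.

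The last question was the level of Nf1 in tumors. IF tumors had 46.5, 26.3, 105.9, 139.6 and 186.7 CPM. PS tumors ran from 38.3 to 183.1 CPM with a median of 105.1 (n = 9), and IFPS tumors from 34.2 to 113.4 CPM with a median of 75.6 (n = 9). Tumors lay on both sides of the pads of their line. Of the 23 tumors, 6 lay below the lowest pad of any mutated line (63.7 CPM) and 12 lay above the highest (101.9 CPM). Against pads of their own line, 2 IF tumors were lower and 3 higher, 1 PS tumor was lower and 7 higher, and 4 IFPS tumors were lower and 4 higher.

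No mean difference between tumors and pads passed the test. IF tumors minus IF pads gave a log2 fold change of 0.08 ± 0.43 (SE, interval -0.80 to 0.96). The same difference was 0.49 ± 0.32 for PS (interval -0.15 to 1.13) and 0.05 ± 0.31 for IFPS (interval -0.58 to 0.69). The edgeR adjusted p-values were 0.901, 0.215 and 0.917, in comparisons that called 23.3%, 38.9% and 27.9% of genes. Against pads 1 to 12 alone the log2 fold change of tumors was 0.56 in PS and 0.044 in IFPS. With pads 13 to 21 alone it was 0.44 in PS and 0.074 in IFPS (edgeR adjusted p from 0.390 to 0.964 by set). The means of log2 CPM gave -0.26 in IF (exact permutation p = 0.732), 0.35 in PS (exact p = 0.240) and -0.11 in IFPS (exact p = 0.716), so the sign in IF and IFPS depended on how the mean was taken. The tumor minus pad difference did not pass a test of a difference among the lines (edgeR adjusted p = 0.805, 0.296% of genes called).

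Tumors of the lines overlapped in Nf1. The test among the 3 kinds of tumor gave an edgeR adjusted p of 0.454, and 7.65% of genes passed it. PS minus IF was 0.13 ± 0.41 (SE, interval -0.72 to 0.98) and IFPS minus IF was -0.44 ± 0.40 (interval -1.28 to 0.40), with 2.48% and 4.25% of genes called. Without IF replicate 5, the tumor with 186.7 CPM, these differences were 0.47 and -0.093. IFPS minus PS was -0.57 ± 0.35, with an interval of -1.29 to 0.15 and an edgeR adjusted p of 0.340. Thus the difference between PS and IF seen in normal cells was not detectable in tumors, and its interval there was wide.

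Against MECs of the same line, Nf1 in tumors differed by -0.54 ± 0.47 in IF (SE, interval -1.51 to 0.42), by 0.04 ± 0.44 in PS (interval -0.85 to 0.93) and by -0.43 ± 0.42 in IFPS (interval -1.30 to 0.44). None passed edgeR (adjusted p from 0.358 to 0.951), which called 42.8%, 45.9% and 44.2% of genes. The extraction protocol describes MECs as cultured and tumors as fresh, and a difference in handling cannot be told apart from one between tumors and MECs.

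Tumors varied more in Nf1 than pads did. IF tumors had an SD of log2 CPM of 1.19, PS tumors of 0.67 and IFPS tumors of 0.70, against 0.09, 0.18 and 0.08 in pads of the same lines. The median SD of all genes was also larger in tumors. In the same order it was 0.43, 0.40 and 0.66 in tumors and 0.21, 0.27 and 0.27 in pads. The mean absolute deviation from the group median was larger in tumors than in pads by 0.51 log2 units in IFPS (exact permutation p = 0.00819, adjusted over 9 tests 0.0369). With library totals that adjusted exact p was 0.168. The difference was 0.84 in IF (exact p = 0.125) and 0.30 in PS (exact p = 0.158). In IFPS tumors 47.9% of genes had a larger SD than Nf1, in PS tumors 30.0% and in IF tumors 13.4%. Among the 1989 genes with a mean level within 0.5 log2 units of Nf1 the shares were lower, at 22.3% in IFPS, 6.64% in PS and 2.66% in IF tumors. In pads 93.4% of all genes had a larger SD than Nf1 in IFPS, 66.8% in PS and 81.4% in IF.

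Composition scores of the tumors were set beside Nf1. In PS tumors the adipocyte-enriched score, the mean log2 CPM of 397 identifiers, ran from 0.82 to 2.80, and in PS pads from 3.21 to 3.95. The PS tumor with the least Nf1 (38.3 CPM) had the highest adipocyte-enriched score of the PS tumors, 2.80. Over the 9 PS tumors Pearson's r was -0.76 (exact permutation p = 0.0257, adjusted over 6 relations 0.0875). Spearman's rho was -0.38 (exact permutation p = 0.313, adjusted 0.356). Without the 2 tumors farthest from the median score r was -0.58. For the MEC-enriched score r was -0.63 (exact permutation p = 0.0822, rho -0.37, exact p = 0.336) and 0.29 without 2 tumors, so it rests on those tumors. For the fibroblast-enriched score r was -0.58 (exact permutation p = 0.0942, rho -0.47, exact p = 0.213) and -0.59 without 2 tumors.

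IFPS tumors fell into clusters by the MEC-enriched score, 6 at 3.59 to 3.77 and 3 at -1.69 to 0.88. The split was placed at the widest gap in that score, and r over all IFPS tumors was not computed. IFPS pads had 2.08 to 2.78. The 3 tumors apart had 102.0, 37.7 and 34.2 CPM of Nf1, with adipocyte-enriched scores of 0.80, 3.16 and 4.42 in the same order. Among the other 6 the tumor with the least Nf1 (39.6 CPM) had the highest adipocyte-enriched score, 2.45. Within these 6, r with the adipocyte-enriched score was -0.87 (exact permutation p = 0.0292, adjusted 0.0875, rho -0.60, exact p = 0.242). Without the 2 farthest tumors it was 0.15, so the relation rests on them. With the fibroblast-enriched score r was -0.70 (exact permutation p = 0.114, rho -0.49, exact p = 0.356) and -0.61 without 2 tumors. With the MEC-enriched score it was 0.40 (exact permutation p = 0.440, rho 0.49, exact p = 0.356) and -0.27 without 2 tumors. Of 13468 genes, 2.98% had an r as low as that of Nf1 with the adipocyte-enriched score and 13.3% with the fibroblast-enriched score. None of the 6 relations passed adjustment.

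The IF tumors, too few for a correlation, had adipocyte-enriched scores of 1.44, 1.67, 0.99, 1.42 and 1.27 in the order in which their Nf1 levels were given. Their MEC-enriched scores were 3.08, 2.55, 3.72, 3.57 and 3.64. The IF tumor with 26.3 CPM, the lowest of all libraries, rested on 500 Nf1 counts, and its 10 most abundant genes took 26.9% of its counts, the highest share of all libraries. The part of composition in the Nf1 levels of tumors was not tested.

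**Figure D4:**
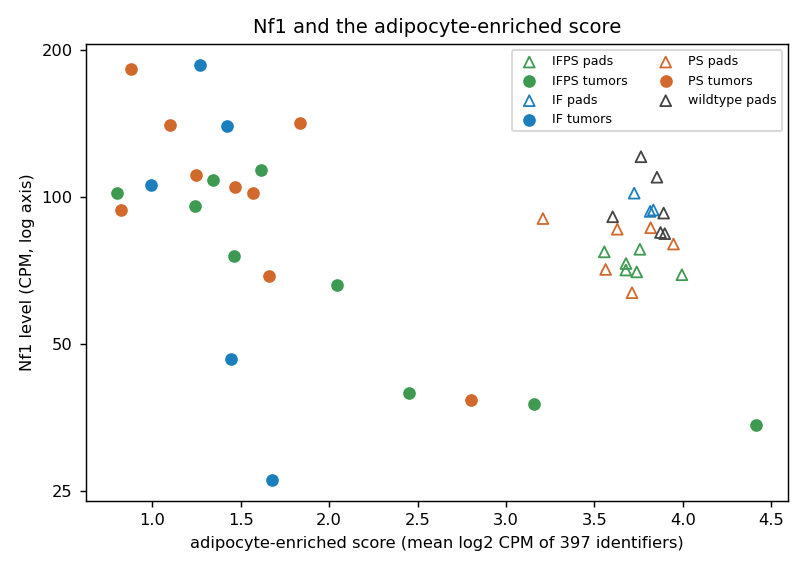
Nf1 level (CPM, log axis) against the adipocyte-enriched score (mean log2 CPM of 397 identifiers) in tumors (filled circles) and pads (open triangles), coloured by line. Pads gather at scores of 3.21 to 3.99, and the tumors with scores above 2.4 have 34.2 to 39.6 CPM.

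The identifiers whose pattern over lines was most like that of Nf1 were sought over the 12 groups of MECs, adipocytes and fibroblasts, each centred on its tissue mean. Of 15927 genes compared, 1 had Pearson's r with Nf1 above 0.9 and 11 had r above 0.8. The median r was 0.01. ENSRNOG00000057905 had r = 0.93, with a low level. Wildtype fibroblasts had 0.577 ± 0.101 CPM of it, IF fibroblasts 0.591 ± 0.0484, PS fibroblasts 0.385 ± 0.0447 and IFPS fibroblasts 0.301 ± 0.145 (SD, n = 3 each). ENSRNOG00000017286 had r = 0.90, and wildtype adipocytes had 27.7 ± 6.15 CPM of it (SD, n = 3). IF adipocytes had 19.1 ± 6.24, PS adipocytes 17.4 ± 1.32 and IFPS adipocytes 14.9 ± 11.96 CPM. Its IFPS libraries varied widely. The groups share libraries across all genes, and no p is given.

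The RefSeq annotation of the GRCr8 assembly places Omg, Evi2b and Evi2a inside Nf1. Without a record of strand in the counting, reads of these genes and of Nf1 transcripts that overlap them may not have been told apart. Counts per gene give the amount of transcript and do not separate alleles or edited from unedited transcripts, so the levels say nothing of the amount or activity of neurofibromin.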

How the data were processed

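Poly(A) RNA libraries of 80 rat samples were sequenced as 50 bp paired-end reads, per the labels' protocols. The authors deposited unnormalized read counts for 32883 Ensembl identifiers, made with Trim Galore, STAR 2.5.2b and Rnor_6.0, per the submitters' processing notes. The counting tool and its use of strand are not given in the sources used here. Columns were matched to samples by title. No identifier matched a symbol in the reference table (GRCr8), so prepared lists of Ras pathway genes, Nf1 neighbours and symbol markers were not analysed.

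Tests used edgeR 4.0.16 in R 4.3.3: quasi-likelihood, TMM factors, filterByExpr, and Benjamini-Hochberg adjustment over all genes tested, with a threshold of 0.05. Each normal tissue had 1 fit over 4 lines, with the set of title numbers as a covariate in pads. Other fits, without that covariate, held the 57 normal libraries, tumors with pads, tumors alone, or tumors with MECs. The scripts were tested on simulated data. Levels are CPM with TMM factors over all 80 libraries, whereas fold changes and percents of wildtype come from the fit of each tissue. A log2 level used a prior count of 2, except for Nf1 in the permutation tests and tumor correlations, which took log2 of CPM directly. SDs of log2 CPM in tumors and pads used the scaling of the fit of tumors with pads. An interval covers 95%. Single values were compared by exact two-sided permutation tests over samples. The 2 identifiers named beside Nf1 for likeness were those with the highest Pearson correlation over 12 cell groups centred per tissue. Cell-type scores are the mean log2 CPM of identifiers at least 4 log2 units higher in 1 wildtype cell type than in each of the others.

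Alternatives were RLE size factors, no low-count filter, DESeq2 1.42.0, fits of only the groups compared, pads by set or without the covariate, a replicate block, and leaving out each library. Library totals without scaling factors in the edgeR fits and correlations, the comparison of pad sets, the tests of spread and the tumor correlations were added after seeing the data. Nf1 and the lists were chosen with earlier results of these data known. The labels do not say that libraries of a group came from separate animals or cultures, so p-values measure the spread between these libraries, which may be technical.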

Additional observations from a re-analysis of the deposited data

How the results depend on the processing

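Of the results recomputed under each alternative, 885 were unchanged, 43 turned sign, 23 lost a call, 7 gained a call and 5 percents moved. Unchanged meant the same direction and side of the threshold by adjusted p. For F-tests it meant the side alone, and for percents of wildtype a shift smaller than the SD of the group. The values that changed are grouped here by setting, and the cause was not tested.

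DESeq2 passed IFPS against wildtype pads (-0.41, adjusted p = 0.0143), IFPS against IF pads (-0.47, 0.0190), IFPS against wildtype adipocytes (-0.57, 8.93e-07) and the second against the first set of wildtype pads (0.36, 0.0211). Fits of only the 2 groups compared lost PS against wildtype MECs (-0.46, edgeR adjusted p = 0.0756), IFPS against wildtype MECs (-0.54, 0.0549), PS against IF MECs (-0.47, 0.108) and IFPS against wildtype fibroblasts (-0.75, 0.0799), and passed IFPS against PS fibroblasts (-0.13, 0.0416). Without the set covariate, IF against wildtype pads was -0.026. With library totals and no scaling factors the sign turned for IFPS against PS adipocytes (0.026), IF against wildtype fibroblasts (-0.024), IFPS against PS fibroblasts (0.0025), the PS minus wildtype difference between pad sets (0.11), wildtype MECs against fibroblasts (0.34) and adipocytes (0.47), and the fibroblast minus MEC difference of IF (-0.069). With those totals wildtype adipocytes and pads differed by 0.12, and PS against wildtype pads by -0.20 (exact permutation p = 0.19). Percents of wildtype became 80.2 in IFPS pads, 64.0 in PS and 65.2 in IFPS adipocytes, and 62.1 in PS and 62.3 in IFPS fibroblasts. These totals moved the median of all genes by between -0.49 and 0.45 on the log2 scale. IFPS against wildtype pads lost the permutation call (-0.31, adjusted exact p = 0.168), as did the larger spread of IFPS tumors (0.59, adjusted exact p = 0.168). With RLE size factors PS against wildtype pads passed that test (-0.29, adjusted exact p = 0.045). Wildtype MECs against adipocytes turned to 0.076 with RLE size factors and with DESeq2, and wildtype adipocytes against fibroblasts to 0.010 with no low-count filter.

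Title numbers were tried as a replicate block in MECs and fibroblasts. Same-numbered pairs had correlations of deviations between 0.096 and 0.221, above 0.1 in 11 of 12, and all 12 libraries correlated best with their own number, a hint from the data and not from the design. With the block, genes called between wildtype MECs and fibroblasts numbered 10314, against 10157 without it. The fibroblast minus MEC difference of Nf1 was then -0.0123 in IF (-0.0132 in these libraries without the block), -0.15 in PS and -0.19 in IFPS, and wildtype MECs against fibroblasts gave -0.02. No call of Nf1 changed with the block.

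Leaving out 1 library at a time gave log2 fold changes of -0.035 to 0.039 for IF against wildtype MECs, -0.59 to -0.51 for IFPS against wildtype MECs and -0.54 to -0.43 for PS against IF MECs. IFPS against IF MECs ran from -0.59 to -0.51, PS against wildtype adipocytes from -0.57 to -0.52 and IF against wildtype fibroblasts from -0.048 to 0.043. Tumors minus pads ran from -0.24 to 0.36 in IF and from -0.038 to 0.18 in IFPS, and the IFPS minus IF difference of these from -0.26 to 0.30. PS minus IF tumors ran from -0.11 to 0.47, PS tumors minus MECs from -0.092 to 0.15 and the second minus first set of IFPS pads from -0.080 to 0.014. Wildtype MECs minus fibroblasts ran from -0.083 to 0.0073, MECs minus adipocytes from -0.035 to 0.029 and adipocytes minus fibroblasts from -0.074 to 0.012. The adjusted p of tissue dependence in PS ran from 0.0466 to 0.375, and the fibroblast minus MEC difference of IF from -0.017 to 0.075. Among differences that stayed uncalled with the same sign, a single library moved these by over 1.5 times: IF against wildtype pads (0.0075 to 0.098) and adipocytes (-0.21 to -0.051), IFPS against PS in pads (-0.16 to -0.045), MECs (-0.12 to -0.012) and adipocytes (-0.031 to -0.0036), IFPS minus IF tumors (-0.67 to -0.093), IF tumors minus MECs (-0.89 to -0.28), the second minus first set of PS pads (0.028 to 0.30) and its difference from wildtype (-0.34 to -0.039), the fibroblast minus MEC difference of PS (-0.17 to -0.048) and the PS minus IF difference of tumors minus pads (0.16 to 0.74).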
